A study of Rattus norvegicus with 6 samples.

Results

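The transcripts of 9 S100 calcium-binding protein genes (S100b, S100a1, S100a3, S100a4, S100a6, S100a10, S100a11, S100a13 and S100a16) were followed in rat sciatic nerve after a crush injury. They were taken by gene name from the deposited mRNA table, which lists 30957 genes, 17 of them with a name that begins with S100. RNA came from 6 Sprague-Dawley rats, 1-month-old per the study's methods, with 1 library for each rat, and the 3 groups held 2 rats apiece. Control animals are labelled as normal, whereas the methods describe the same operation without the clamp. The D4 and D7 groups were killed 4 and 7 days after the middle of the left sciatic nerve was clamped with hemostatic forceps. No allele or other agent distinguished the groups. The paper calls the injured samples lesional tissues, and how far they reached on either side of the crush is not given in the sources used here.

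S100 proteins are small dimeric proteins that bind calcium through EF-hand loops and then attach to partner proteins, such as annexins, cytoskeletal proteins and enzymes. Several are also released and act on cell surface receptors. S100b is the classical marker of Schwann cells, the glia that wrap peripheral axons. S100a4 and S100a6 are abundant in fibroblasts and other migratory cells, S100a10 and S100a11 work as partners of annexins, and S100a8 and S100a9 are proteins of neutrophils and freshly recruited monocytes.

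After the crush the S100 genes did not move as a group. At D4, S100a4 and S100a11 rose, while S100b, S100a1, S100a3 and S100a16 fell, and S100a6, S100a10 and S100a13 did not pass the test. At D7, S100a4 was still above control, and S100b, S100a1, S100a3, S100a6 and S100a16 were below it. The test behind these statements was the quasi-likelihood test of edgeR, and a gene passed when its Benjamini-Hochberg adjusted p-value, over 15195 genes, was under 0.05. Thus 2 of the 9 genes were higher and 4 lower at D4, where 21.6% of all tested genes were higher and 22.6% lower, and 1 of 9 was higher and 5 lower at D7, where 19.5% and 18.1% were. The study's criterion adds a change of at least 2-fold, and a gene that met both is said here to be called. With it, S100a4 and S100a11 were called up and S100a1 and S100a3 down at D4 (11.2% of all genes were called up and 10.7% down). At D7, S100a1 and S100a3 were called down and no member was called up (9.02% and 9.83% of all genes). The median log2 fold change of the 9 genes was −0.38 at D4 and −0.73 at D7, against −0.04 and 0.01 over all tested genes. With either D4 library left out, only S100a3, S100a4 and S100a11 of the 6 genes still passed the test at D4, so that the count was 3, and a group left with 1 library was then assumed to vary like the others.

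Counts on mRNAs summed to between 18727255 and 25350886 fragments per library, and the 9 S100 genes took 0.175% to 0.263% of them. All 9 members passed the filter on low counts. Values are given below as normalized CPM, that is, counts scaled to a common library total after adjusting each total with its TMM factor. The factors were 0.863 and 0.885 in the control libraries and 1.06 to 1.08 in the injured ones. Without these factors the median log2 fold change of all genes was 0.25 at D4 and 0.31 at D7, so each change stated here is relative to the bulk of genes. In a nerve homogenate, fewer cells of a type and less RNA per cell cannot be told apart.

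**Figure D1:**
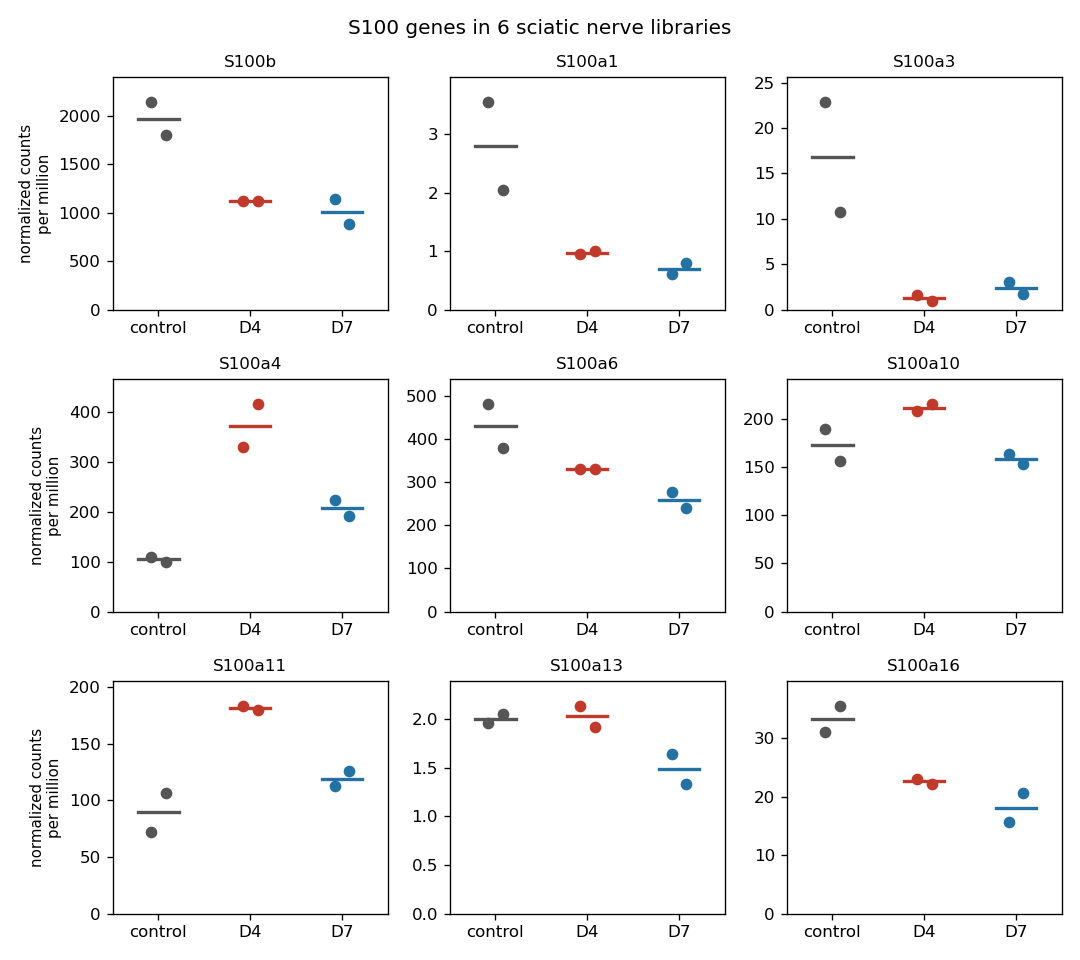
Normalized CPM (y axes, from 0) of each S100 gene in the control, D4 and D7 libraries, with a point for each library and a bar at the mean of the 2 libraries of a group. S100a4 and S100a11 are highest at D4, S100b and S100a3 are highest in control nerve, and the control points of S100a3 and S100a1 lie far apart.

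S100b, the Schwann cell marker, was the most abundant member in every library. Control nerve held 2139 (library a) and 1798 (library b) normalized CPM, compared with 1121 and 1120 at D4 and 1135 and 885 at D7. Both control libraries thus lay above all 4 injured ones, and the D4 and D7 values overlapped. S100b was 1.76-fold lower at D4 (log2 fold change −0.81, standard error 0.16, adjusted p = 0.008206) and 1.95-fold lower at D7 (−0.96, 0.16, adjusted p = 0.005711), just short of the 2-fold criterion, which it met without control library b (−1.09) or D7 library a (−1.13). The D4 test was lost when either D4 library was left out, the adjusted p rising to at most 0.0622. Between the days it differed by a log2 fold change of −0.15, with a 95% interval from −0.53 to 0.23.

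The other genes of the Schwann cell lineage did not follow S100b in size. Sox10, the transcription factor that keeps Schwann cell identity, had values of 0.07 (D4) and 0.63 (D7) on the log2 fold change scale, neither past the test (adjusted p = 0.8104 and 0.06176). Erbb3, the neuregulin receptor subunit, rose by 1.13 at D4 and 1.44 at D7 on the same scale. Cdh19, an adhesion molecule of the lineage, fell by 0.37 at D4 and was higher than control by 0.54 at D7. In each library the ratio of S100b to Sox10, in normalized counts on the log2 scale, was 2.58 and 2.80 in control nerve, 1.91 and 1.69 at D4, and 1.06 and 1.13 on D7. The 3 groups did not overlap in this ratio, and it was lowest at D7. The ratio of S100b to Erbb3 was 1.68 and 1.70 in control nerve, −0.15 and −0.34 at D4, and −0.63 and −0.81 on D7, again in 3 separate ranges.

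The myelin genes examined moved much further than S100b at D4. At D7 they were also further below control than S100b (−0.96 on the log2 scale), except Mag (−0.80). Pmp2, a fatty acid carrier of myelin, fell by 5.07 at D4 and its D7 value was −2.81, both on the log2 scale. The log2 ratio of S100b to Pmp2 was −0.49 and −0.26 in control nerve, 3.98 and 3.76 at D4, and 1.3 and 1.7 on D7, in 3 separate ranges with the highest at D4. Set against D4, Pmp2 at D7 rose by 2.26 (adjusted p = 0.0215), whereas S100b did not pass the test (adjusted p = 0.6036). All 7 myelinating Schwann cell markers examined were called down at D4, and 5 of 7 at D7, where 10.7% and 9.02% of all tested genes were. The ratios to Sox10, Erbb3, Cdh19 and Pmp2 are descriptions and were not themselves tested.

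**Figure D2:**
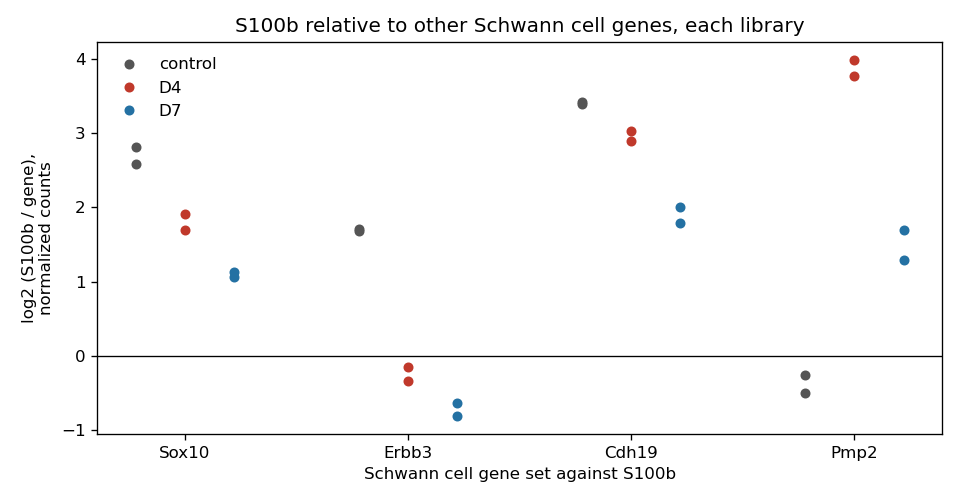
Log2 ratio of S100b to 4 other Schwann cell genes (y axis, normalized counts), with a point for each library by group. Against Sox10, Erbb3 and Cdh19 the ratio falls from control to D4 to D7, whereas against Pmp2 it is highest at D4.

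S100a1, best known from heart and skeletal muscle, was a rare transcript with 69 and 34 counts in control nerve, against 23 and 27 at D4 and 13 and 16 at D7. The control values differed from each other by more than any injured pair did, yet both lay above all injured libraries once normalized (3.55 and 2.05 CPM against 0.610 to 0.997). It was 2.88-fold lower at D4 (adjusted p = 0.02362) and 3.99-fold lower at D7 (adjusted p = 0.0133, standard error 0.42 on the log2 scale). Both calls depended on single libraries. At D4 the call was lost without control library a or either D4 library (adjusted p between 0.1139 and 0.1231), and at D7 without control library a or D7 library a (adjusted p = 0.06034 and 0.07617). The skeletal muscle markers found in the table summed to between 4.17 and 44.8 normalized CPM, with control libraries at 4.17 and 30.7, in the opposite order to S100a1. None of these 4 genes was called at either day by edgeR or DESeq2, and 0 had an unadjusted p under 0.05. Their standard errors against control were wide, from 0.55 (Tnnt3 at D7) to 2.10 (Ckm at D7) on the log2 scale. A part of muscle tissue in the S100a1 values was not tested.

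S100a3, known from the hair cuticle, had the largest change of the 9. It was counted 444 and 179 times in control nerve, 40 and 25 times at D4, and 64 and 35 times at D7. In normalized CPM control library a (22.9) was well above b (10.8), and both were above all injured libraries (0.923 to 3.00). S100a3 was 13.2-fold lower at D4 (log2 fold change −3.72, standard error 0.52, adjusted p = 0.002396) and 7.09-fold lower at D7 (−2.83, 0.49, adjusted p = 0.007117). Both calls held in each of 13 alternative fits, with log2 fold changes from −4.18 to −3.07 at D4 and from −3.27 to −2.18 at D7. The D7 libraries were slightly above the D4 ones, by a log2 fold change of 0.89 that did not pass the test (95% interval −0.38 to 2.17).

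S100a4, a regulator of cell motility that binds non-muscle myosin, had the largest rise of the 9. It went from 109 and 100.1 normalized CPM in control nerve to 330 and 416 at D4, and stood at 223 and 191 on D7. The 3 groups did not overlap. The rise at D4 was 3.56-fold (log2 fold change 1.83, standard error 0.15, adjusted p = 0.0003851), and its log2 fold change stayed between 1.66 and 2.12 over 13 alternative fits, past the test in each. At D7 it was 1.98-fold above control (0.99, standard error 0.15, adjusted p = 0.004094), which is just under the 2-fold criterion and was past it without TMM factors (1.28), with at least 10 counts in every library (1.02), without control library a (1.05) and without D7 library b (1.09). D7 was lower than D4 by a log2 fold change of −0.85 (standard error 0.15, adjusted p = 0.03723), and S100a4 was the 1 member with an adjusted p under 0.05 between the days, where 1.79% of all genes were lower and 2.88% higher at D7. No member was called between the days under the 2-fold criterion (0.494% of genes were called down and 1.68% up). By an unadjusted p under 0.05, S100a4, S100a6, S100a10 and S100a11 were all lower at D7 than at D4, and DESeq2 gave 3 members with an adjusted p under 0.05. The shares of all genes by these criteria are not given here, so these counts are not read as a trait of the family. With any D4 or D7 library left out the S100a4 difference between the days was −1.01 to −0.67 on the log2 scale and did not pass. Each of these fits left a group with 1 library, and how far the loss is particular to S100a4 was not tested.

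S100a6, also called calcyclin and a partner of the calcyclin-binding protein Cacybp, was the second most abundant member by the deposited FPKM, which accounts for gene length. In normalized CPM S100a4 was level with it in D4 library a and above it in D4 library b (416 against 331). The S100a6 values were 481 and 378 normalized CPM in control nerve, 329.5 and 331 at D4, and 278 and 240.1 on D7. The groups did not overlap, and the level was lower at each later day. The D4 difference did not pass the test (log2 fold change −0.38, 95% interval −0.73 to −0.03, adjusted p = 0.07435), except without control library b. At D7 S100a6 fell by 0.73 on the log2 scale, that is 1.66-fold (standard error 0.14, adjusted p = 0.01072). Cacybp itself, named after its values were seen, had log2 fold changes of −0.28 and 0.12, neither past the test.

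S100a16, a widely expressed member, fell moderately from 31.1 and 35.5 normalized CPM in control nerve to 23.1 and 22.2 on D4 and 15.6 and 20.7 on D7. Both control libraries lay above all injured ones. The log2 fold change was −0.56 at D4 (standard error 0.16, adjusted p = 0.03405) and −0.88 at D7 (0.16, adjusted p = 0.00893). At D4 it passed in 9 of 13 alternatives and was lost without TMM factors, without control library b and without either D4 library, whereas at D7 it passed in all 13. S100a13, a carrier in the release of Fgf1 and Il1a, had only 27 to 52 counts in any library. Its log2 fold change was 0.02 at D4 (95% interval −0.70 to 0.73) and −0.42 at D7 (−1.16 to 0.31), and it passed the test at neither day. The values are compatible with any change within these intervals. The D4 libraries overlapped the control ones.

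S100a11 and S100a10 both bind annexins. S100a11 rose from 72.2 and 107 normalized CPM in control nerve to 183 and 179.6 on D4 and was 112 and 126 on D7, the control pair being the most spread. The D4 rise was 2.03-fold (log2 fold change 1.02, standard error 0.19, adjusted p = 0.006619) and thus close to the 2-fold line. Without control library a it was 0.77, still past the test but no longer 2-fold. At D7 it did not pass (0.42, 95% interval −0.03 to 0.87, adjusted p = 0.1255), except without TMM factors or without control library b. S100a10, which forms a tetramer with annexin A2 at the plasma membrane, held 189 and 157 normalized CPM in control nerve, 208 and 215 at D4, and 164 and 154 on D7. Its D4 libraries were the highest, with a log2 fold change of 0.29 (95% interval 0.01 to 0.57) that did not pass after adjustment (adjusted p = 0.08521), though it passed with DESeq2, without TMM factors and without control library a. At D7 the value was −0.13, and its sign turned to 0.17 without TMM factors. The RefSeq gene table lists 5 pseudogenes and 2 like-named genes for S100a11 and 1 pseudogene for S100a10, and fragments of these copies could have been divided among them by the counting, so both values carry that uncertainty.

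**Figure D3:**
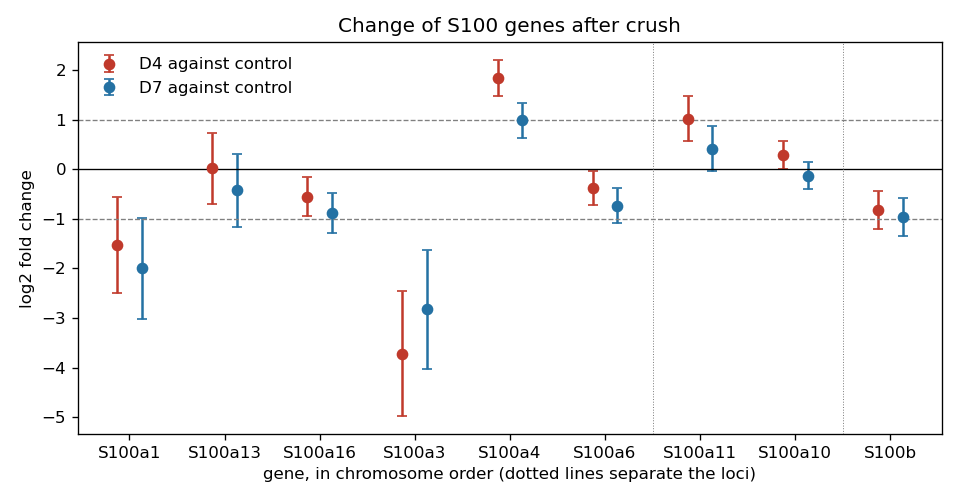
Log2 fold change against control (y axis) of the 9 S100 genes in chromosome order (x axis) at D4 and D7, with 95% intervals from edgeR's quasi-likelihood fit and dashed lines at 2-fold. S100a4 (1.83 at D4) stands beside S100a3 (−3.72 at D4), its neighbour, and most intervals of the other genes lie within or across the 2-fold lines.

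Compared per length, by the deposited FPKM, the order of the members changed in the middle and at the bottom. In control nerve S100b had 1158 ± 122 FPKM (SD, n = 2) and S100a6 794 ± 120.1, followed by S100a11 (264 ± 76.1), S100a10 (264 ± 30.8) and S100a4 (139.9 ± 6.03). S100a11 and S100a10 overlapped in control nerve and could not be ordered. On D4 S100b was at 806 ± 0.840, S100a6 at 747 ± 3.71, S100a11 at 652 ± 8.44 and S100a4 at 609 (538 and 679.8 in libraries a and b), the last pair overlapping, with S100a10 at 395 ± 10.2. S100a4 therefore stood above S100a10 in the injured libraries and below it in control nerve. On D7 the order was S100b (729 ± 120.3), S100a6 (588 ± 54.4), S100a11 (431 ± 39.3), S100a4 (339.7 ± 34.0) and S100a10 (297 ± 10.5), with no overlap between neighbours. The remaining genes were far lower. S100a16 was at 25.2, 20.9 and 16.8 FPKM on average in the 3 groups. S100a3 went from 15.6 ± 7.67 in control nerve, where it overlapped S100a1 (8.56 ± 3.11) and lay above S100a13, to 1.46 ± 0.575 on D4, the lowest of the 9. S100a1, S100a3 and S100a13 lay between 2.64 and 3.30 on D7, where neighbours overlapped. The FPKM values imply gene lengths of 285 nt for S100a1 and 297 nt for S100a11, against 573 nt for S100a10 and 1484 nt for S100b. In raw counts S100a10 exceeded S100a11 in 6 of 6 libraries, so the place of S100a11 rests on its short gene model.

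**Figure D4:**
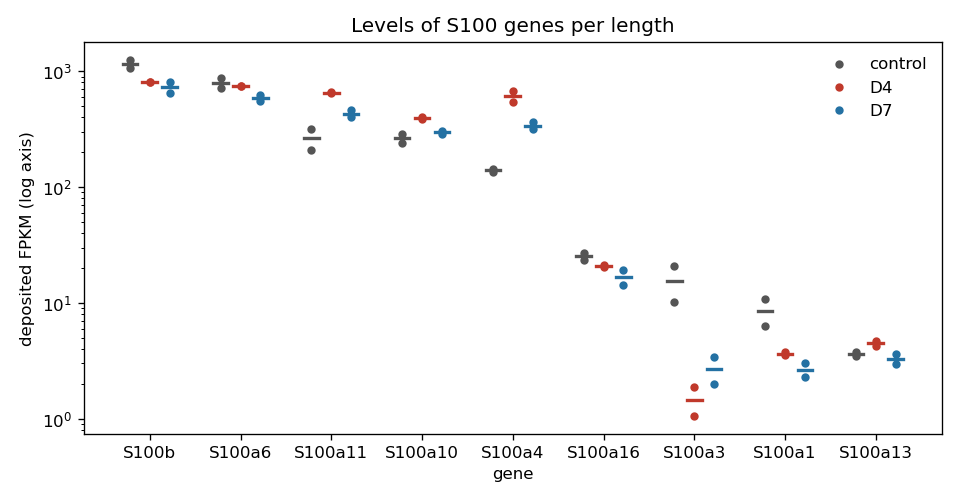
Deposited FPKM (y axis, log scale) of the 9 S100 genes ordered by their control mean, with a point for each library and a bar at the group mean. S100b and S100a6 lead in all groups, and S100a4 moves from 139.9 FPKM in control nerve to 609 on D4.

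In the Rnor_6.0 coordinates of the deposited table, 6 of the 9 genes lie in one stretch of chromosome 2, in the order S100a1 (189900667 to 189903219), S100a13, S100a16, S100a3 (189955836 to 189996029), S100a4 (189997129 to 189999604) and S100a6 (190007216 to 190008511). S100a11 (193866951 to 193868502) and S100a10 (193892589 to 193901236) lie farther along the same chromosome, and S100b lies on chromosome 20 from 13130636 to 13142856. S100a16 and S100a3, next to each other in this list, both fell at both days. S100a3 and S100a4 are separated by 1099 bp, and S100a3 fell 13.2-fold at D4 while S100a4 rose 3.56-fold. S100a5, the next gene on, held 0 to 10 counts per library and was not tested, and S100a6 beyond it did not pass at D4. The S100a3 span of 40194 bp also contains a U1 RNA gene, listed at 0 counts in all 6 libraries.

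The sequences before the RefSeq start sites of these 2 neighbours are shown because the genes changed in opposite directions, beside S100a11, the other gene called up, and S100b. The RefSeq promoter table on the GRCr8 build held 7 of the 9 members. Each line gives the 250 bases before the start, 5′ to 3′ on the strand of the gene. Capitals mark TATA boxes (TATAAA) and GC boxes (GGGCGG), searched on both strands, and overlapping GC boxes run together.
S100a3: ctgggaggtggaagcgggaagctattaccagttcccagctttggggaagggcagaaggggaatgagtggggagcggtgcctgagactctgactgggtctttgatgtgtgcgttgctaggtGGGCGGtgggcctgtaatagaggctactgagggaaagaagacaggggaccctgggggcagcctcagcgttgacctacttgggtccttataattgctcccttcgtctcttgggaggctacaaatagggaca
S100a4: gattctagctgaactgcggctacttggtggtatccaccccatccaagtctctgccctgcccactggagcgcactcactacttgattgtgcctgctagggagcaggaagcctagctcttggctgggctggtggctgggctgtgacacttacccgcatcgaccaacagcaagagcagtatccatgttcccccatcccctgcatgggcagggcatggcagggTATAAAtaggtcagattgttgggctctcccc
S100a11: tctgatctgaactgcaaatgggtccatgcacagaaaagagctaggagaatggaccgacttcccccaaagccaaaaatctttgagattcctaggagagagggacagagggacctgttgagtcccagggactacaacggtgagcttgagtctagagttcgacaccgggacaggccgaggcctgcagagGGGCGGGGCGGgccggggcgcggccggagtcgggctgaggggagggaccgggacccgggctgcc
S100b: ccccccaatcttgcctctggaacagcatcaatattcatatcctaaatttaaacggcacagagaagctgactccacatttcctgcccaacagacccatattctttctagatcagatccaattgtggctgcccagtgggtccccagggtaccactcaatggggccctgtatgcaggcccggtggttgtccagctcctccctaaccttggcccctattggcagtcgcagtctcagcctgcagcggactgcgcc

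On GRCr8 the windows are chr2:178384263-178384512 on the plus strand for S100a3, chr2:178388279-178388528 on the plus strand for S100a4, chr2:181874882-181875131 on the plus strand for S100a11 and chr20:12381082-12381331 on the minus strand for S100b. The S100a3 and S100a4 windows end at 178384512 and 178388528, far closer together than the starts of the 2 deposited spans (189955836 and 189997129 on Rnor_6.0). The RefSeq start of S100a3 is therefore not the start of the 40194 bp span in which its fragments were counted. S100a4 alone among the 7 members carried TATAAA, which ends 26 bases before the start and is found in 12.9% of 33469 promoters of the same length. S100a3 had 1 GC box and S100a11 had 2 that overlap, whereas S100a4 and S100b had none (30.5% of promoters hold at least 1). The AP-1 site TGANTCA, bound by the injury-induced Jun and Fos proteins, was in none of the 7 windows and in 6.34% of all promoters. The 2 genes called up thus shared neither marked motif in these windows. A match is a description of the letters only, and a missing one says nothing of the factor.

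The other S100 genes of the table were close to absent. S100a8 had 2 and 1 counts in control nerve, 1 and 6 at D4, and 6 and 8 on D7, and S100a9 had 4 and 0, 0 and 0, and 10 and 2. S100a7a had 2 to 11 counts, S100z had 2 counts in D4 library a and 0 elsewhere, and S100g and S100vp had 0 in all libraries, where 3 counts correspond to 0.111 to 0.181 normalized CPM. No fold change is given for them at these depths, and none passed the filter on low counts. S100pbp, which encodes a nuclear protein that binds S100P, is not an S100 gene itself. Its counts ran from 879 to 1342, and its log2 fold changes of −0.14 and −0.04 did not pass the test.

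Markers of cell types moved strongly in the same libraries, and their part in the S100 changes was not tested. The shares of all tested genes that were called were 11.2% up and 10.7% down at D4, and 9.83% and 9.02% at D7. All 9 macrophage markers were called up at D4 and 7 at D7, and their summed level went from 350 to 383 normalized CPM in control nerve to 1174 to 1204 on D4 and 738 to 924 on D7. The order of the 3 ranges, lowest in control nerve and highest at D4, was that of S100a4 and S100a11, and the sums of the cycling and repair Schwann cell lists had the same order. Not every macrophage marker shared it. Cd68, Adgre1 and Ptprc overlapped between D4 and D7 (Adgre1 at 64.4 and 74.4 against 60.9 and 86.2 CPM), whereas the other macrophage markers had the order of the sum. The 5 genes of dividing cells, which include Mki67, were all called up at both days, from 40.2 to 75.9 summed CPM in control nerve to 880 to 1023 on D4 and 582 to 627 on D7. Of the 6 fibroblast markers none was called at D4 by edgeR or DESeq2 (4 had an unadjusted p under 0.05) and 1 was called down at D7, with summed levels of 55040 and 59737 in control nerve and 28912 to 37317 after injury. Col1a1 and Col3a1 dominated that sum, at 24890 and 26992 CPM in control library a. The members did not share its direction, since Pdgfra rose at D4 (0.68, adjusted p = 0.004738) and D7 (0.49, adjusted p = 0.01874), and Lum passed the test at neither day. Of 7 neutrophil markers, S100a8 and S100a9 among them, 3 were tested, and the sum of the 7 was 18.0 to 56.7 CPM. Csf3r, the receptor for the granulocyte growth factor, was called up at D4 (log2 fold change 2.58, adjusted p = 0.0003665) and D7 (2.36, adjusted p = 0.0007493), and Cxcr2 was called down at D4. Of the granule genes, Elane was at 0 in every library, Ngp had 0 to 2 counts, and Mpo had 929 and 854 counts in control nerve and 1 to 295 after injury, a difference that did not pass the test (adjusted p = 0.1063 and 0.1284). Of the 5 T cell markers 3 were called up and 1 down at D4 and 4 up at D7, summing to at most 100.9 CPM. Cd4 dominated that sum, at 93.7 and 83.7 CPM on D4 and 84.1 and 82.8 on D7. Cd3g was the one called down, from 21 and 22 counts in control nerve to 5 and 5 at D4. Adipocyte markers summed to 1525 and 1213 CPM in control nerve, 378 and 194 at D4, and 21.1 and 499 at D7, where library a stood far below b. The injured libraries lay below the control ones for all 6 genes, with median log2 fold changes of −2.28 and −2.42, but only Lipe was called, down at D7. Perineurial genes were called down in 2 of 3 cases and endothelial genes in 3 of 4 at D4, with 2 of 3 and 4 of 4 at D7. Of 8 repair Schwann cell genes, 4 were called up at both days, and 1 was called down at D4, and they summed to 203 and 208 CPM in control nerve, 2169 and 2295 at D4, and 1438 and 1323 at D7. Ngfr dominated that sum, at 1863 and 1978 CPM on D4. Gap43, Shh, Gdnf and Btc shared its order, whereas Ncam1 was lowest at D4 (42.4 and 35.6 CPM) and Gfap was highest at D7 (149 and 128 CPM). Of the 4 lineage genes examined, which include S100b itself, Erbb3 was called up at both days and none was called down.

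Among the binding partners and receptors of S100 proteins, 22 of 25 listed genes were tested, and 2 were called up and 2 down at each day. These shares were near those of all tested genes, of which 11.2% were called up and 10.7% down at D4, and 9.83% and 9.02% at D7. Plau and Plat, the plasminogen activators whose activity is focused at the surface by S100a10 and annexin A2, had the largest rises among the called genes, Plau by log2 fold changes of 2.15 at D4 and 1.29 at D7 and Plat by 1.82 and 1.70. Fgf1, the growth factor released with the help of S100a13, fell by 5.14 at D4 and was at a log2 fold change of −4.32 at D7, from 13882 and 9813 counts in control nerve to 433 and 521 on D4 and 822 and 545 on D7. Il1a, the other cargo of S100a13, had 0 counts in both control libraries, 19 and 7 at D4 and 41 and 4 at D7, and did not pass the test (adjusted p = 0.1025 and 0.06167). Cav1, the scaffold of caveolae, fell by 1.46 and 2.01. With the adjusted p alone, 8 of the 22 were higher and 3 lower at D4, and 5 and 5 at D7. Of all tested genes, 21.6% were then higher and 22.6% lower at D4, and 19.5% and 18.1% at D7. The annexins, receptors and Il1a were picked after their values were seen. Anxa2 rose by 0.82 at D4 (standard error 0.09, adjusted p = 0.00116) and 0.36 at D7, and Anxa1, a partner of S100a11, by 0.94 and 0.49. Of the other annexins listed, Anxa6 rose at D4 (0.42, adjusted p = 0.02181) and did not pass at D7, and Anxa5 and Anxa11 fell at D7 by 0.67 and 0.33 and did not pass at D4. Thus Anxa2 passed the test at both days while S100a10 passed at neither, and whether the 2 genes differ was not tested. Ager, the receptor for advanced glycation end products, and Tlr4, both receptors for released S100 proteins, did not pass at either day, with log2 fold changes of −0.57 and −0.43 for Ager and 0.29 and 0.04 for Tlr4. Myh9, the myosin bound by S100a4, and Trpv5 were listed at 0 in all libraries, and Trp53 was not found by that symbol. A listed 0 does not by itself show that the nerve lacked the transcript.

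Other genes of EF-hand proteins, such as calmodulin, were listed for comparison. Of 20 listed genes 16 were tested and none was called at either day by edgeR or DESeq2, where 5 at D4 and 4 at D7 had an unadjusted p under 0.05. By the adjusted p alone 2 were higher and 2 lower at D4, and 1 and 2 at D7. Over all tested genes 21.6% were higher and 22.6% lower at D4, and 19.5% and 18.1% at D7. With the 2-fold criterion, 11.2% were called up and 10.7% down at D4, and 9.83% and 9.02% at D7. The median log2 fold change of the 16 genes was 0.10 at D4 and −0.05 at D7, against −0.38 and −0.73 for the S100 genes.

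Genes with the closest course over the 6 libraries were sought by the root mean square difference of centred log2 CPM. For S100b these were Exd2 (0.050), Thsd7a (0.086) and Epb41l3 (0.086), with D4 log2 fold changes between −0.80 and −0.92. For S100a4 they were Mab21l1 (0.099), Thbs4 (0.11) and Stra6 (0.12), of which Thbs4, a matrix glycoprotein, was as abundant as 64174 and 76312 counts on D4. For S100a6 they were Ccdc115 (0.058), Haus3 (0.063) and Morn4 (0.065). Among the members themselves S100b and S100a6 were the closest pair, at 0.19. These distances come from 6 libraries in 3 groups and carry no test.

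The deposited lncRNA table held 10 transcripts that overlapped one of the 9 genes or lay within 10 kb of it, 4 of them overlapping, and 8 were tested. One was called up at D4, where 10.1% of all 14077 tested lncRNAs were called, and 0 were called at D7 (5.79%) or between the days (0.249%), though 1 in each of these had an unadjusted p under 0.05. NONRATT016627.2, on chromosome 2 from 193863237 to 193868647, spans S100a11. Its counts were 2262 and 3171 in control nerve, 7504 and 8331 at D4, and 3986 and 4357 on D7, the same order as S100a11 itself (log2 fold change at D4 1.37, standard error 0.21, adjusted p = 0.01782). This call was lost when either D4 library was left out. NONRATT017682.2 overlaps S100b on chromosome 20 and had 539 to 1029 counts, and its D4 value of 0.03 on the log2 fold change scale stands beside −0.81 for S100b. NONRATT017297.2, 1808 bp from S100b, had 358 to 586 counts and passed at neither day. NONRATT016623.2, which overlaps S100a1, was named after its values were seen. It went from 123 and 58 counts in control nerve to 41 and 53 on D4 and 35 and 26 on D7, in the direction of S100a1 but not past the test (adjusted p = 0.1384 and 0.07364). Whether the counting used the strand is not given in the sources used here, so fragments of an overlapping gene and lncRNA cannot be told apart.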

How the data were processed

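Total RNA of 6 sciatic nerves was depleted of rRNA and sequenced paired-end. The authors mapped reads with Hisat2 2.0.4 to the Ensembl rat genome (Rnor_6.0 per the labels), assembled transcripts with Stringtie 1.3.0 and deposited raw fragment counts per gene and per lncRNA transcript, which were not normalized. The authors also deposited FPKM values. The mRNA FPKM follow the mRNA total of each library.

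The counts were tested with edgeR 4.0.16 in R 4.3.3 (filterByExpr, TMM, quasi-likelihood, 1 fit of 6 libraries per table, Benjamini-Hochberg over all features), which kept 15195 of 30957 mRNAs and 14077 lncRNAs. The threshold was an adjusted p under 0.05 and 2-fold, as in the study's methods. Standard errors are each log2 fold change over the root of its F statistic, and 95% intervals use the fit's degrees of freedom. FPKM served only to compare levels between genes. Sequences are from RefSeq (GRCr8). Alternatives were DESeq2 1.42.0, RLE factors, no TMM factors, 2 other filters, fits of the groups compared, a letter block, 2 other thresholds and each library left out. The procedure was tested on simulated data.

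The members and lists were chosen with earlier results of these data known. Some genes of the marker lists are not reported here, and the list counts leave them out. Named were all S100 genes, the partner and EF-hand genes with the 2 highest and 2 lowest called changes, the 3 genes nearest in course to S100b, S100a4 and S100a6, and lncRNAs at the loci (the 3 most abundant and those called). Libraries labelled a and b are different rats. With 2 rats per group the p-values rest on a spread shared across genes. Figures used Python 3.11.15 and matplotlib 3.10.9.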

Additional observations from a re-analysis of the deposited data

Results flagged for a closer look

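S100a4 differed between the days. Its log2 fold change at D7 against D4 was −0.85 (95% interval −1.20 to −0.49, edgeR adjusted p = 0.03723), both D7 libraries lying below both D4 libraries and above both control libraries. The adjusted p ranged from 5.99e-06 with DESeq2 to 0.2147 over 14 alternative fits, and it was under 0.05 in 9 of them. It was over 0.05 with the letter block and when either D4 or either D7 library was left out, where the log2 fold change was −1.01 to −0.67. Each fit without a D4 or D7 library left that group with 1 library, and how far the loss is particular to S100a4 was not tested.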

How the results depend on the processing

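The numbers of members called at D4, D7 and between the days were 4, 2 and 0. The same counts were given by DESeq2, RLE factors, no low-count filter and fits of only the groups compared. For libraries of the same letter, deviations from the group means correlated by 0.01 (control and D4), 0.18 (control and D7) and −0.12 (D4 and D7) across genes. With 2 libraries per group, these values cannot settle whether such libraries shared more than the letter. With the replicate block the counts were also 4, 2 and 0, with 3281, 2827 and 248 mRNAs called, and S100a4 between the days then had an adjusted p of 0.06741, so that 0 members in place of 1 were under 0.05. In a block that exchanged the letters of the D4 libraries, added after seeing the data, 334 mRNAs and 0 members were called between the days. When the 2-fold change itself was tested, 2 members were called at D4 (S100a3 and S100a4) and 1 at D7 (S100a3), with 1683, 1217 and 37 mRNAs called in the 3 comparisons. With no fold filter there were 6, 6 and 1 members and 6715, 5705 and 710 mRNAs, against 3333, 2863 and 331. DESeq2 called 521 mRNAs between the days. For members with an adjusted p under 0.05 between the days, DESeq2 and the fit of only those groups both gave 3. At least 10 counts in every library gave 1 lncRNA at the loci called at D7. Without TMM factors, 69.3% of mRNAs called at D4 were up, against 51.2%, and 70.4% against 52.1% at D7, S100a10 at D7 reversed to 0.17, and S100a10 at D4 (0.58) and S100a11 at D7 (0.71) passed the test.

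Leaving out each library in turn gave 2 to 4 members called at D4, 2 to 4 at D7 and 0 between the days. Members with an adjusted p under 0.05 numbered 3 to 6 at D4, 5 to 7 at D7 and 0 to 2 between the days, mRNAs called between the days 0 (without either D4 library) to 469 (without D7 library b), with 99 without D7 library a, and lncRNAs at the loci called at D4 0 to 1. Log2 fold changes that changed sign were close to 0. S100a13 at D4 ran from −0.059 (without D4 library a) to 0.092 and was −0.017 without control library a, S100a10 at D7 ran from −0.26 to 0.017 (without control library a), and S100b between the days ran from −0.35 to 0.017 (without D7 library b). By level, S100a10 and S100a11 exchanged ranks in control nerve with TMM-scaled totals. Members with under 100 counts in a library (S100a1, S100a3 and S100a13) are limited by depth as well as by 2 rats per group.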
